A study of Mus musculus with 2 samples.

Results

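Transcript counts of 10 genes of the myostatin, activin and BMP signalling chain were described in single nuclei of mouse tibialis anterior (TA) muscle. The members, Mstn, Acvr2a, Acvr2b, Bmpr1a, Tgfbr1, Smad1, Smad2, Smad3, Smad4 and Smad7, were the rows of both count matrices that carried these symbols, 10 of 32285 genes. A longer list of 76 genes of the same pathway, the members included, served as their surroundings. The study asked what BCL6, a transcriptional repressor, does in skeletal muscle, and its single-nucleus experiment consisted of 2 libraries. The M-Bcl6 KO library came from Myf6-Cre+ Bcl6 fl/fl male mice and the M-Bcl6 WT library from Myf6-Cre+ Bcl6 wt/wt male littermates, so the Cre transgene, driven by the Myf6 promoter in muscle cells, was present in both. All mice were 6 weeks old on a C57BL/6 background, and the loxP sites flank exons 7 to 9 of Bcl6. Nuclei of the right and left TA of 2 mice were pooled for each library and sorted on the DNA dye 7-AAD.

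Myostatin, the product of Mstn, is a ligand of the TGF-beta family made by muscle fibres that limits muscle mass. It binds the type II activin receptors encoded by Acvr2a and Acvr2b, which then activate a type I receptor, among them the one encoded by Tgfbr1, and the receptor complex phosphorylates SMAD2 and SMAD3. BMP ligands signal through other type I receptors, such as the product of Bmpr1a, to SMAD1, SMAD5 and SMAD9, and are known to favour muscle growth. SMAD4 is the shared partner of both branches, and SMAD7 is an inhibitor that the pathway itself induces.

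Mstn lies at chr1:53061640-53068079 on the plus strand and Smad3 at chr9:63646767-63757994 on the minus strand (GENCODE vM21, build GRCm38, which is mm10). Their promoters are shown because these were the members whose levels differed most between fibre types and whose fibre-type pattern differed between the libraries. The sequences are those of RefSeq for GRCm38.p6 and run from 250 bases before to 50 bases after the transcription start, 5′ to 3′ on the strand of the gene, at chr1:53061390-53061689 and chr9:63757945-63758244. Capitals mark the E-box letters CANNTG, the core motif of myogenic regulatory factors such as MYF6 and MYOD1.
Mstn: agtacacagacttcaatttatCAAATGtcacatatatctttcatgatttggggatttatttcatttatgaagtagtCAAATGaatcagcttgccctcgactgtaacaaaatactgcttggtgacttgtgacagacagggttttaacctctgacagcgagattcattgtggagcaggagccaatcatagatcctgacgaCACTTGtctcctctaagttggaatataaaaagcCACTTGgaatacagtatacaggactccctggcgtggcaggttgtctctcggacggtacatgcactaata
Smad3: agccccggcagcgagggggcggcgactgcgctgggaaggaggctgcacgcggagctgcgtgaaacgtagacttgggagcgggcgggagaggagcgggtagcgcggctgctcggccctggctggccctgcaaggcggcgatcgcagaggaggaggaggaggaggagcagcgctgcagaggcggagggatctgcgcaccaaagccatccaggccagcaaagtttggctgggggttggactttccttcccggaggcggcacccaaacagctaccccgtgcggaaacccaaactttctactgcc
The Mstn promoter held 4 E-box matches, the first starting 229 bases and the last 19 bases before the transcription start, and its GC content was 41.3%. The Smad3 promoter held none and had a GC content of 67.7%. Promoters were matched for 7 of the 10 members, in 8 windows. Of these 7 genes, 2 (Mstn and Tgfbr1) held CANNTG, against 72.3% of all 32851 promoter windows of that table. The core letters TTCNNNGAA, shared by BCL6 and STAT sites, were in none of the 7 and in 8.30% of all windows. The SMAD palindrome GTCTAGAC was in none of the 7 and in 0.213% of all windows, and the GC-rich element GGCGCC, read by BMP SMADs, was in 2 (Tgfbr1 and Bmpr1a) and in 11.9% of all windows. All motifs were searched on both strands, no 2 matches overlapped within a window of these genes, and a match of letters is not a bound site.

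Of the other members with a matched promoter, Acvr2a lies at chr2:48814109-48903269, Acvr2b at chr9:119402118-119434995, Bmpr1a at chr14:34410734-34503341, Tgfbr1 at chr4:47353222-47414931 and Smad1 at chr8:79338395-79399518. No member overlapped another annotated gene on its own strand. Acvr2a, Acvr2b, Bmpr1a and Smad4 each overlapped 1 gene on the opposite strand, and whether the deposited counting used strand or intron reads was not given in the sources used here.

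The libraries held 3798 (WT) and 4096 (KO) barcodes and 11974138 and 12026013 unique molecular identifiers (UMIs, 1 per captured RNA molecule). After filtering, 3674 and 3944 nuclei were kept, with medians of 2551 and 2473 UMIs, and 6 barcodes occurred in both libraries. Clusters were named from marker genes, with "-like" for non-muscle classes, and fibre types were read from the Myh gene with most UMIs in a nucleus, Myh4 for IIb, Myh1 for IIx and Myh2 for IIa. Any Myh UMI sufficed, and nuclei with none or with a tie were counted as without a main Myh gene. There were 2408 and 3086 myonuclei, of which 701 and 612 were IIb, 1156 and 1174 IIx, 236 and 482 IIa, and 313 and 799 without a main Myh gene. The non-muscle classes held 1233 and 831 nuclei, with 501 and 341 fibro-adipogenic progenitor (FAP)-like nuclei as the largest class. The count of the targeted gene was higher, not lower, in the library labelled KO. With UMI sums scaled to a common total (CPM), Bcl6 was at 167 CPM in WT and 502 CPM in KO myonuclei, a log2 ratio of 1.59 (95% interval 1.503 to 1.673). Counts per gene do not show whether these reads lie in the deleted exons, so the samples are called the library labelled WT and the library labelled KO, or WT and KO in short. By RT-qPCR in older mice, the study reported Bcl6 mRNA to be deleted in skeletal muscles, the TA among them, and not in liver. If the labels were exchanged, every direction of KO over WT given here would turn. Each genotype is 1 library, so nothing was replicated or tested. Intervals are exact 95% intervals that cover counting error only, and since UMIs of 1 nucleus are not independent they are narrower than the spread between nuclei or mice.

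To find where the chain is expressed, UMIs summed over myonuclei were compared with those summed over the non-muscle classes within each library. A gene was called where its ratio was at least 1.5-fold away from the median ratio of all genes with at least 200 UMIs, in both libraries. Of the 10 members, all of which had enough UMIs, 2 (Mstn and Bmpr1a) were higher in myonuclei, where 26.1% of 8606 genes were, and 3 (Acvr2a, Smad1 and Smad2) were lower, where 27.9% of genes were. The median log2 ratio of the members was -0.62 in WT and -0.71 in KO, beside -0.22 and -0.30 over all genes.

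**Figure D1:**
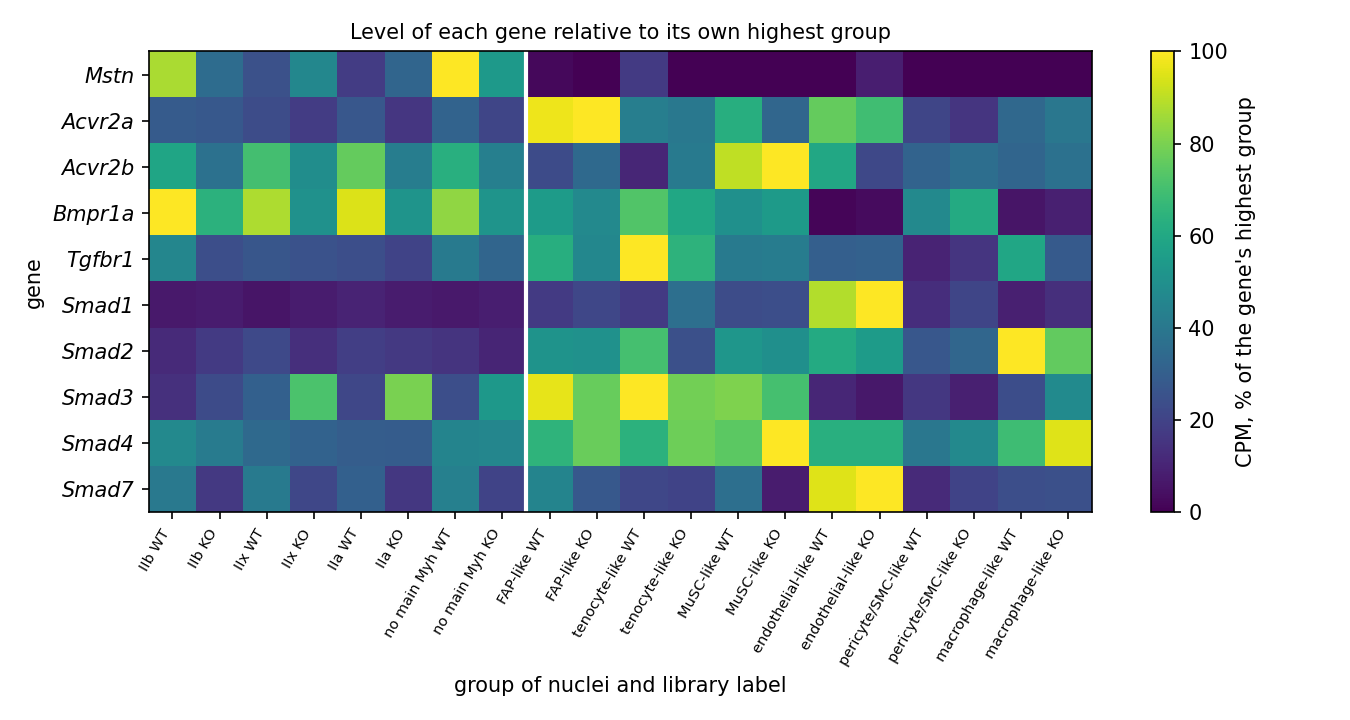
Level of each of the 10 genes (rows) in 4 groups of myonuclei and 6 non-muscle classes of each library (columns), as a percentage of the CPM in the gene's own highest group. Mstn is brightest in the myonuclear columns to the left of the white line (its tenocyte-like WT cell, at 16.9%, rests on 1 UMI), Smad1 and Smad7 are brightest in the endothelial-like columns, and Smad3 is brighter in the KO than in the WT columns of the fibre types.

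Mstn, the ligand, was found almost entirely in myonuclei. It had 194 UMIs (22.0 CPM, 19.0 to 25.3) in WT and 186 UMIs (19.3 CPM, 16.7 to 22.3) in KO myonuclei. In all non-muscle classes together it had 2 UMIs in WT and 1 in KO, for ratios of myonuclei to non-muscle of 4.79 (2.92 to 7.85) and 5.08 (2.59 to 10.40) on the log2 scale. Inhba and Inhbb, which encode activin subunits, were at 0 UMIs in the myonuclei of both libraries, which allows up to 0.340 CPM in WT and 0.312 CPM in KO, and Inha, which encodes the inhibin subunit, had 85 and 88 UMIs (9.62 and 9.14 CPM).

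The type II receptor genes divided differently. The neuromuscular junction-like, myotendinous junction-like and lymphatic endothelial-like classes, of 6 to 31 nuclei per library, are left out of the orders of classes given here. Acvr2a was highest in FAP-like nuclei, at 355 CPM in WT and 364 CPM in KO, against 95.2 and 72.3 CPM in myonuclei. Endothelial-like nuclei followed with 278 and 253 CPM, and among the non-muscle classes pericyte or smooth muscle-like nuclei were lowest with 76.2 and 56.0 CPM. Acvr2b was at 45.4 and 30.1 CPM in myonuclei and at 15.7 and 23.3 CPM in FAP-like nuclei. Its highest value was in nuclei of the muscle stem cell (MuSC)-like class, at 61.6 and 68.1 CPM from 17 and 13 UMIs. With so few UMIs, this rank was not set apart in WT from IIa nuclei, at 51.9 CPM from 46 UMIs. Nor was it set apart there from IIx nuclei, at 47.7 CPM, or IIb nuclei, at 40.0 CPM. Acvr2a therefore made up 67.7% (65.0 to 70.3) and 70.6% (67.6 to 73.4) of the UMIs of both genes in myonuclei and 91.1% (88.7 to 93.0) and 89.6% (86.4 to 92.2) in the non-muscle classes. These intervals were apart between myonuclei and the pooled non-muscle classes and overlapped between libraries. The genes differ in length (89161 and 32878 bases), so such shares compare groups of nuclei and do not give the balance between the RNAs. In FAP-like nuclei Acvr2a made up 95.8% and 94.0%, whereas the intervals of MuSC-like nuclei (78.8% and 63.9%) and pericyte or smooth muscle-like nuclei (77.8% and 69.6%) overlapped those of myonuclei.

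Bmpr1a, a type I receptor of BMPs, was at 449 CPM in WT and 264 CPM in KO myonuclei and at 206 and 203 CPM over the non-muscle classes. It was near absent in endothelial-like nuclei, with 3 UMIs (7.65 CPM, 1.58 to 22.3) in WT and 4 UMIs (14.7 CPM, 3.99 to 37.5) in KO, and had 5 UMIs in the macrophage-like nuclei of each library. Other classes were nearer to myonuclei. As a percentage of WT IIb nuclei, the highest group, KO fibre types were at 64.2% (IIb), 50.4% (IIx) and 51.6% (IIa). In KO, pericyte or smooth muscle-like nuclei were at 61.2%, tenocyte-like at 59.4%, MuSC-like at 54.3% and FAP-like at 47.2%. In WT the highest non-muscle class, tenocyte-like, was at 72.7%, below the 3 fibre types at 87.7% to 100%. The endothelial-like nuclei also held the 10 myonuclear markers at 2916 and 3074 CPM, against 97617 and 113590 CPM in myonuclei, and the part of free RNA in their Bmpr1a UMIs was not tested. Tgfbr1, the type I receptor of TGF-beta that also serves myostatin, was highest in tenocyte-like nuclei at 387 CPM in WT and 250.2 CPM in KO, from 52 and 36 UMIs, followed by FAP-like nuclei at 243 CPM in WT.

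Among the SMAD genes, Smad1, which carries the BMP signal, was highest in endothelial-like nuclei, at 385 CPM (326 to 451) in WT and 436 CPM (361 to 522) in KO, against 28.4 and 33.9 CPM in myonuclei. Smad7 was also highest there, at 66.3 and 69.6 CPM. Smad2 was lower in myonuclei (36.0 and 28.4 CPM) than in the non-muscle classes (108 and 96.3 CPM) in both libraries. Smad3 changed sides between the libraries: its log2 ratio of myonuclei to non-muscle was -1.40 (-1.58 to -1.22) in WT and 0.20 (0.01 to 0.39) in KO, so it was not called in either direction. Smad4 had ratios of -0.71 in WT and -1.05 in KO.

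Within myonuclei, the KO library was set beside the WT library to compare the levels of the chain between the genotype labels. Relative to the median of 6975 genes with at least 200 UMIs, 1 member (Smad3) was at least 1.5-fold higher in KO, where 9.46% of genes were, and 2 (Bmpr1a and Smad7) were lower, where 5.73% were. The median log2 ratio was -0.36 over the 10 members and -0.15 over all genes.

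**Figure D2:**
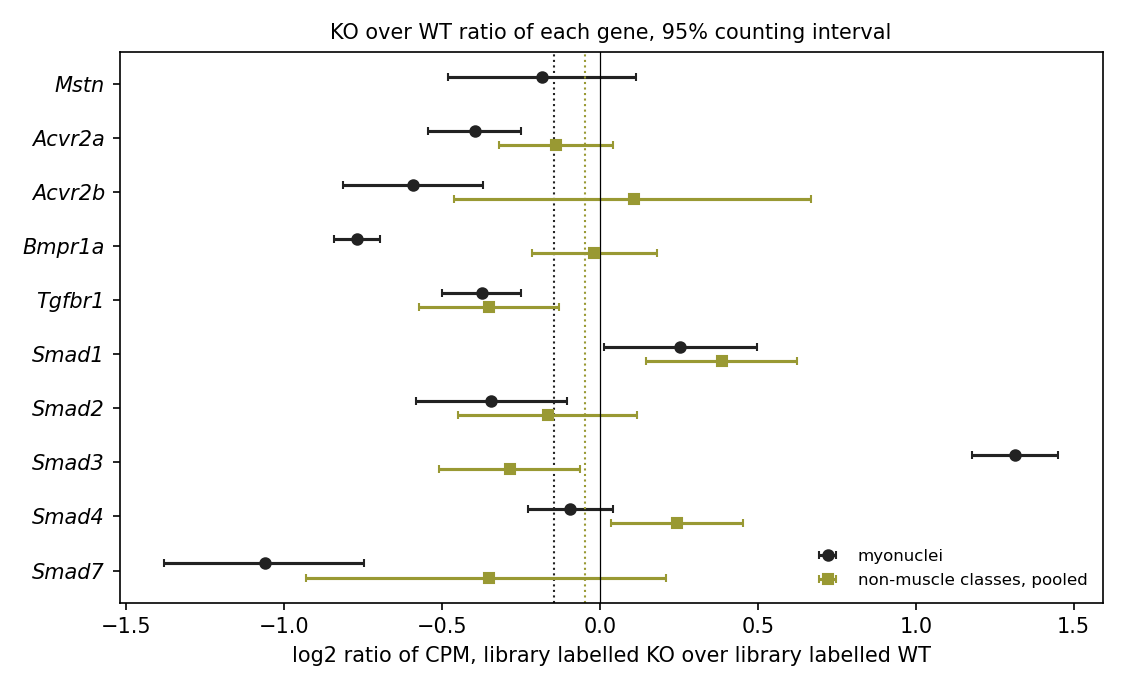
Log2 ratio of CPM, the library labelled KO over the library labelled WT, for each of the 10 genes in myonuclei (circles) and in the pooled non-muscle classes (squares), with exact 95% counting intervals and the medians of all genes as dotted lines. Smad3 stands to the right at 1.31 in myonuclei and at -0.29 in non-muscle classes, and Bmpr1a stands at -0.77 and -0.02. Mstn, with 3 UMIs outside myonuclei, has no square.

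Smad3 was at 68.3 CPM (62.9 to 73.9, 603 UMIs) in WT and 169.6 CPM (161 to 178, 1632 UMIs) in KO myonuclei. The log2 ratio was 1.31 (1.18 to 1.45), which ranked 126 of 6975 genes from the top. In the non-muscle classes it was lower in KO, at 181 against 148 CPM and a log2 ratio of -0.29 (-0.51 to -0.06). The 7 FAP-like markers together were at 30.7 CPM in WT and 23.7 CPM in KO myonuclei, against 9182 and 8797 CPM in FAP-like nuclei, where Smad3 was at 272 and 217 CPM. The part of FAP RNA in the myonuclear Smad3 counts was not tested.

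Bmpr1a had 3968 UMIs in WT and 2536 UMIs in KO myonuclei, the most precise value of the set, and a log2 ratio of -0.77 (-0.84 to -0.70). Over the non-muscle classes its ratio was -0.02 (-0.22 to 0.18), and the interval excluded the myonuclear value. Smad7 was at 27.7 CPM (24.4 to 31.4) in WT and 13.3 CPM (11.1 to 15.8) in KO myonuclei, a log2 ratio of -1.06 (-1.38 to -0.75) that ranked 163 from the bottom. Its ratio in the non-muscle classes, -0.35, had a wide interval (-0.93 to 0.21), and a difference from the myonuclear ratio was not detectable at this depth.

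The remaining members moved less. Acvr2b had a log2 ratio of -0.59 (-0.81 to -0.37) in myonuclei, Acvr2a of -0.40 (-0.54 to -0.25), Tgfbr1 of -0.37 (-0.50 to -0.25) and Smad2 of -0.34 (-0.58 to -0.11). All 4 lay less than 1.5-fold below the median ratio of all genes, and the interval of Smad2 included it, as did those of Smad4 (-0.09, -0.23 to 0.04) and Mstn (-0.18, -0.48 to 0.11). Smad1 had a ratio of 0.25 (0.01 to 0.50). With each nucleus thinned to 1000 UMIs, the ratios of Smad1 and Smad2 were 0.002 and -0.001. In the non-muscle classes Smad1 and Smad4 were higher in KO, with log2 ratios of 0.39 (0.15 to 0.62) and 0.25 (0.04 to 0.45).

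The levels were then compared between fibre types. IIa myonuclei set against IIb myonuclei gave 1 member (Smad3) at least 1.5-fold higher in both libraries, where 13.5% of 4340 genes were, and 0 of the 8 members with at least 200 UMIs lower, where 10.3% were. The median log2 ratio of all 10 members was -0.08 in WT and -0.07 in KO, and that of all genes tested was -0.01 and -0.06. Mstn and Smad7 had fewer than 200 UMIs in these nuclei and were not called.

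**Figure D3:**
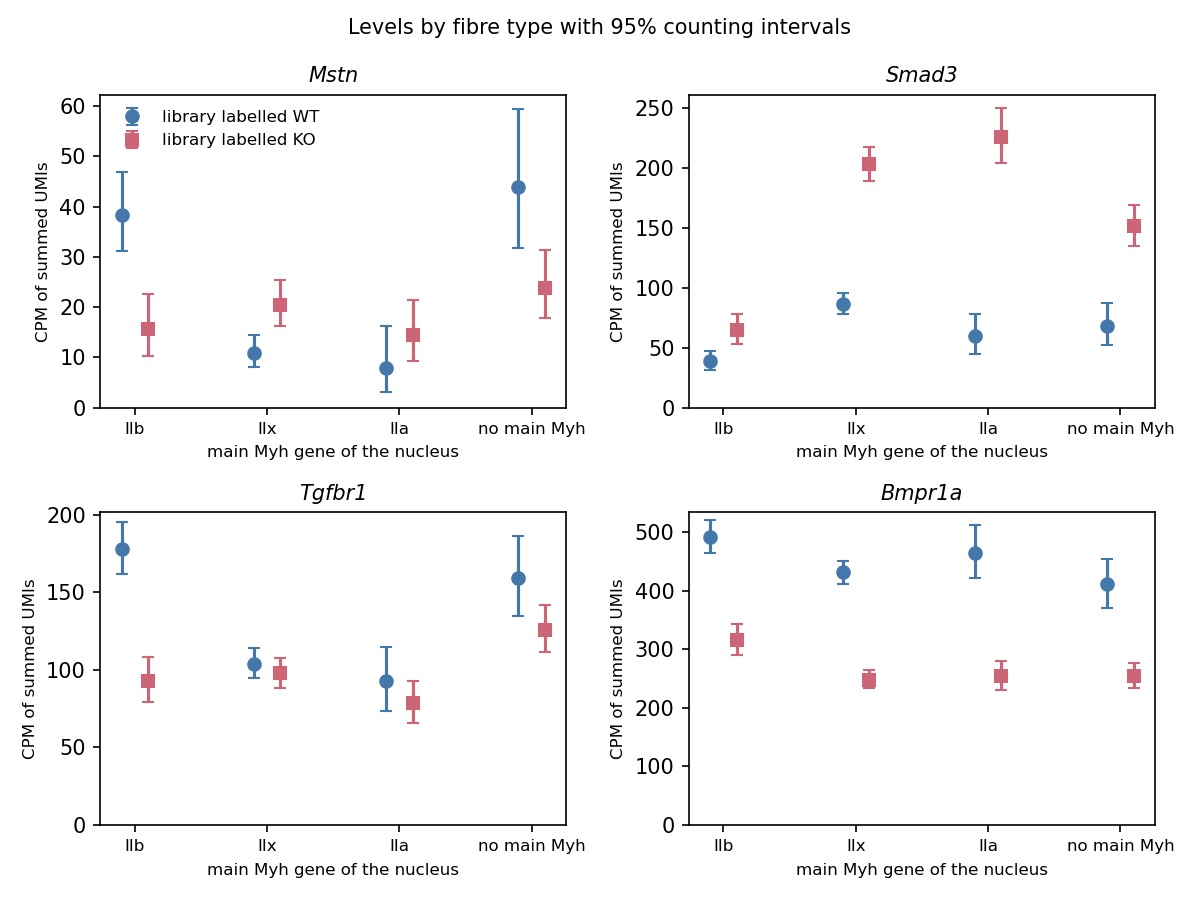
CPM of Mstn, Smad3, Tgfbr1 and Bmpr1a in IIb, IIx and IIa myonuclei and in myonuclei without a main Myh gene, for the library labelled WT (circles) and KO (squares), with exact 95% Poisson intervals. Mstn is lower in KO in IIb nuclei (38.4 and 15.6 CPM) and higher in KO in IIx nuclei (10.9 and 20.4 CPM), whereas Bmpr1a is lower in KO in all 4 groups.

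Mstn differed between fibre types in WT. It was at 44.0 CPM (31.7 to 59.4, 42 UMIs) in nuclei without a main Myh gene, 38.4 CPM (31.1 to 46.9, 96 UMIs) in IIb, 10.9 CPM (8.07 to 14.4, 49 UMIs) in IIx and 7.90 CPM (3.18 to 16.3, 7 UMIs) in IIa nuclei. The first pair and the last pair in this order overlapped, and the step between IIb and IIx, a log2 ratio of IIx to IIb of -1.82 (-2.34 to -1.30), did not. The share of WT nuclei with a Mstn UMI was 9.56% (7.48 to 11.98) in IIb and 2.51% (1.69 to 3.58) in IIx. After thinning each nucleus to 1000 UMIs these shares were 1.58% (0.79 to 2.81) and 0.96% (0.48 to 1.71), from 11 nuclei each, and the intervals overlapped. In KO the levels were 23.8 CPM (51 UMIs), 15.6 CPM (10.3 to 22.7, 27 UMIs), 20.4 CPM (16.2 to 25.4, 82 UMIs) and 14.4 CPM (24 UMIs) in the same order of groups, and all 4 intervals overlapped. The ratio of IIx to IIb was 0.39 (-0.25 to 1.07) in KO, so the WT order of IIb over IIx was not found there.

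Read by fibre type, the KO over WT log2 ratio of Mstn was -1.30 (-1.97 to -0.67) in IIb, 0.90 (0.38 to 1.45) in IIx, 0.86 (-0.40 to 2.32) in IIa and -0.88 (-1.50 to -0.26) in nuclei without a main Myh gene. A pooled ratio near the median of all genes thus held opposite differences in IIb and IIx nuclei. The UMIs were spread over many nuclei, 67 of 701 IIb nuclei in WT and 23 of 612 in KO, and 29 of 1156 IIx nuclei in WT and 59 of 1174 in KO, with at most 8 UMIs in 1 nucleus. Counting each nucleus once gave log2 ratios of -1.35 (-2.10 to -0.64) in IIb and 1.00 (0.34 to 1.70) in IIx. The depth of nuclei moved with this result: the median was 3004 UMIs in WT and 2394 UMIs in KO IIb nuclei, and after thinning each nucleus to 1000 UMIs the IIb ratio was -0.23 (-1.75 to 1.22) from 11 and 8 UMIs, whereas the IIx ratio was 1.08 (0.09 to 2.15) from 13 and 28 UMIs. The share of myonuclei with a Mstn UMI was 5.19% (4.34 to 6.15) in WT and 4.44% (3.74 to 5.23) in KO, or 1.47% (1.03 to 2.04) and 1.73% (1.29 to 2.26) after thinning. Among endothelial-like nuclei, which should lack Mstn, 0 of 223 in WT had a UMI, which allows a share of up to 1.35%, and 1 of 132 in KO, at median depths of 1400 and 1748 UMIs.

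The IIb nuclei of the libraries also fell into different clusters. Cluster 1, led by Myh4 and Mybpc2, held 47.6% of the WT and 69.4% of the KO IIb nuclei, and cluster 4, led by Actr3b, Ctxn3 and Smoc2, held 35.1% and 15.7%. Mstn was at 61.1 CPM in WT and 38.2 CPM in KO in cluster 4 and at 20.2 and 12.1 CPM in cluster 1, so the cluster with more Mstn held fewer of the KO IIb nuclei. Within cluster 4 the log2 ratio of KO over WT was -0.68 (-1.26 to -0.12) and within cluster 1 it was -0.74 (-1.64 to 0.15). The IIx nuclei were also spread differently. Cluster 0 held 57.4% of the WT and 42.4% of the KO IIx nuclei, and cluster 2 held 28.9% and 35.3%. The Mstn ratio was 0.93 (0.34 to 1.54) in cluster 0 and -0.25 (-1.25 to 0.77) in cluster 2.

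Smad3 had its lowest level in IIb nuclei in both libraries. In WT it was at 38.8 CPM (31.5 to 47.4) in IIb, 86.4 CPM (78.0 to 95.5) in IIx, 59.8 CPM (44.8 to 78.2) in IIa and 68.0 CPM (52.5 to 86.7) in nuclei without a main Myh gene. The intervals of IIb and IIx were apart, and that of IIa nuclei overlapped with each of the other 3. In KO the levels were 64.7 CPM (53.3 to 77.9) in IIb, 203 CPM (189 to 217) in IIx, 226 CPM (203 to 250) in IIa and 151 CPM (135 to 168) without a main Myh gene, with IIx and IIa overlapping at the top.

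Smad3 was thus higher in KO in all 4 groups, by a log2 ratio of 0.74 (0.33 to 1.14) in IIb, 1.23 (1.05 to 1.41) in IIx, 1.92 (1.497 to 2.358) in IIa and 1.15 (0.76 to 1.56) without a main Myh gene. The intervals of IIb and IIa did not overlap. The IIa nuclei of the libraries were also spread differently over clusters, with 58.1% of WT and 39.0% of KO IIa nuclei in cluster 2 and 36.4% and 56.0% in cluster 0, the cluster with the higher Smad3 level. The log2 ratio of IIa to IIb was 0.62 (0.11 to 1.12) in WT, only just past the 1.5-fold limit, and 1.80 (1.49 to 2.12) in KO. The ratio of IIx to IIb was 1.15 (0.83 to 1.49) and 1.65 (1.36 to 1.95). Per nucleus, 18.4% (16.91 to 20.05) of WT and 24.3% (22.8 to 25.9) of KO myonuclei had a Smad3 UMI, or 6.09% (5.16 to 7.13) and 12.2% (11.1 to 13.4) after thinning to 1000 UMIs, whereas in endothelial-like nuclei thinned in the same way the shares were 1.96% and 1.74%, from 3 and 2 nuclei. In IIb nuclei the shares were close, at 10.8% and 10.3% before and 3.02% and 4.04% after thinning.

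Bmpr1a varied little across fibre types. It ranged from 410 CPM (without a main Myh gene) to 492 CPM (IIb) in WT and from 248 CPM (IIx) to 316 CPM (IIb) in KO. Its KO over WT log2 ratio was -0.64 (-0.79 to -0.49) in IIb, -0.80 (-0.91 to -0.69) in IIx, -0.87 (-1.07 to -0.67) in IIa and -0.69 (-0.88 to -0.50) without a main Myh gene, so all 4 intervals lay below 0 and overlapped one another. Smad7 was also lower in KO in each group, from 28.0 to 11.6 CPM in IIb, from 28.3 to 14.7 CPM in IIx, from 21.4 to 11.4 CPM in IIa and from 30.4 to 14.0 CPM without a main Myh gene. In IIa, with 19 UMIs in each library, the interval of the ratio included 0 (-1.91 to 0.08).

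Tgfbr1 was, like Mstn, highest in IIb among the 3 fibre types of WT. It was at 178 CPM (162 to 195) in IIb, 104 CPM (94.8 to 114) in IIx and 92.5 CPM (73.6 to 115) in IIa, a log2 ratio of IIa to IIb of -0.94 (-1.30 to -0.60). In KO the 3 levels, 93.0, 97.6 and 78.4 CPM, had overlapping intervals, and the ratio of IIa to IIb was -0.25 (-0.59 to 0.09). The KO over WT log2 ratio was -0.94 (-1.21 to -0.67) in IIb and -0.09 (-0.29 to 0.11) in IIx, intervals that did not overlap. In WT, Tgfbr1 was at 223 CPM in cluster 4, which held fewer of the KO IIb nuclei, and at 141 CPM in cluster 1. Within these clusters the KO over WT log2 ratio was -0.64 (-0.93 to -0.35) and -0.53 (-0.84 to -0.22).

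Acvr2a was at 104.5 and 99.98 CPM in IIb nuclei of WT and KO, and at 84.9 and 64.0 CPM in IIx and 99.3 and 58.0 CPM in IIa nuclei. Its KO over WT ratio was close to 0 in IIb (-0.06, -0.35 to 0.22) and -0.78 (-1.21 to -0.34) in IIa. Acvr2b was lower in KO in every group of fibre types, with log2 ratios from -0.51 in IIx to -0.85 in IIa, though without a main Myh gene the interval reached 0.06. Smad4 lay between 77.2 and 125 CPM in all 3 fibre types of both libraries and was higher in IIb than in IIa nuclei, by a log2 ratio of IIa to IIb of -0.67 (-1.06 to -0.29) in WT and -0.53 (-0.86 to -0.20) in KO, of which the second was less than 1.5-fold relative to the median of all genes.

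Smad2 and Smad1 were sparse in fibres. Smad2 had 59 UMIs in the IIb nuclei of each library, at 23.6 CPM in WT and 34.1 CPM in KO, and 197 and 108 UMIs in IIx nuclei, at 43.9 and 26.9 CPM. Its log2 ratio of KO over WT was 0.53 (-0.02 to 1.08) in IIb and -0.71 (-1.06 to -0.36) in IIx. After thinning each nucleus to 1000 UMIs the IIx ratio of Smad2 turned to 0.05 (-0.64 to 0.75), from 36 and 38 UMIs, and the IIb ratio was 0.55 (-0.36 to 1.47). Smad1 was between 24.3 and 42.9 CPM in the 3 fibre types, and its KO over WT ratio had an interval above 0 in IIx nuclei, at 0.44 (0.06 to 0.82), and intervals that included 0 in IIb and IIa. In the small myotendinous junction-like class of 25 and 31 nuclei, Smad1 was at 110 CPM (56.7 to 192) in WT and 77.0 CPM (35.2 to 146) in KO. The WT interval lay above that of all myonuclei and the KO interval overlapped it. Mstn had 0 UMIs in this class in both libraries, which allows up to 27.4 and 25.7 CPM. These limits lie above its level in all myonuclei (22.0 and 19.3 CPM), so a lower level was not shown.

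**Figure D4:**
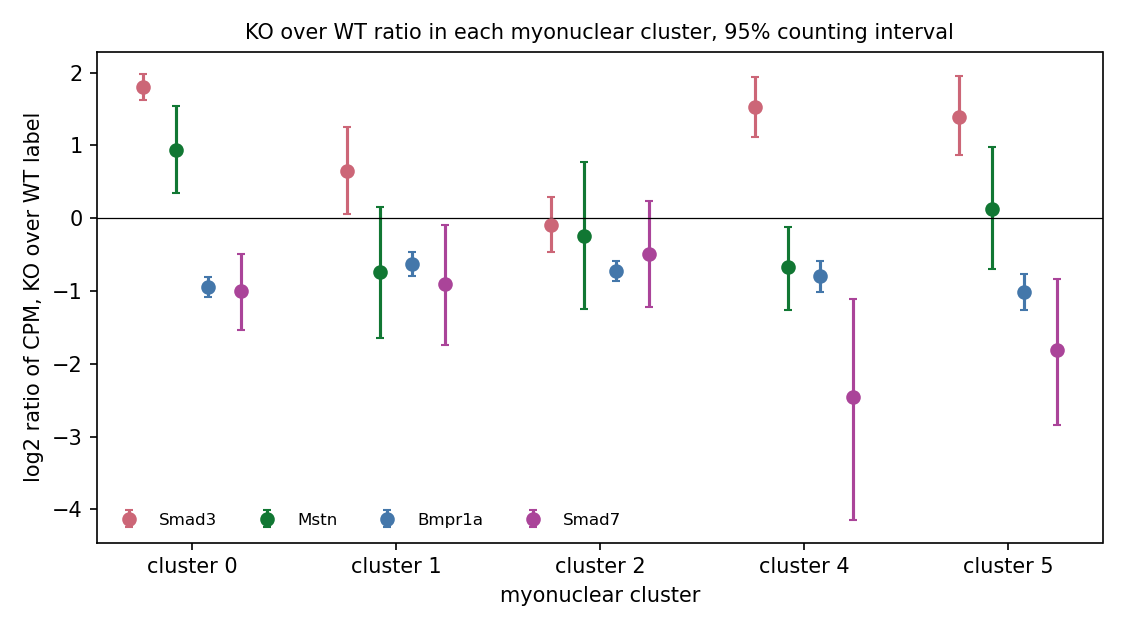
Log2 ratio of CPM, the library labelled KO over WT, of Smad3, Mstn, Bmpr1a and Smad7 in myonuclear clusters 0, 1, 2, 4 and 5, those that held 100 nuclei or more per library, with exact 95% counting intervals. Smad3 lies above 0 in clusters 0, 1, 4 and 5 and at -0.09 in cluster 2, and Bmpr1a and Smad7 lie below 0 in all 5.

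The difference in Smad3 was not spread evenly over myonuclei. In cluster 0, led by Ppara, Cobll1 and Ppargc1a, Smad3 was at 103 CPM in WT and 359 CPM in KO, a log2 ratio of 1.80 (1.62 to 1.98). In cluster 2, led by Myh7, Atp2a2 and Casq2, it was at 57.1 and 53.8 CPM, a ratio of -0.09 (-0.46 to 0.29). Both clusters consisted mostly of IIx nuclei (69.6% and 58.8%) and IIa nuclei (21.3% and 25.6%), so nuclei of the same main Myh gene differed in Smad3. The clusters were made without the pathway genes. In the other clusters the ratio was 0.65 (0.06 to 1.25) in cluster 1, 1.52 (1.12 to 1.94) in cluster 4 and 1.39 (0.86 to 1.95) in cluster 5, which was led by Nr4a3.

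Bmpr1a had ratios from -1.01 in cluster 5 to -0.63 in cluster 1, and each interval lay below 0. The ratio of Smad7 was lowest in cluster 4, at -2.45 (-4.15 to -1.12), and highest in cluster 2, at -0.49 (-1.23 to 0.23). The ratio of Acvr2a lay between -0.62 and -0.23 and that of Smad4 between -0.20 and -0.03, and all 5 intervals of Smad4 included 0. Smad1 had ratios from 0.10 to 0.57, with an interval above 0 in cluster 2 alone. Mstn was higher in KO in cluster 0, at 11.8 and 22.4 CPM (log2 ratio 0.93, 0.34 to 1.54). Its ratio was -0.25 (-1.25 to 0.77) in cluster 2 and 0.12 (-0.70 to 0.98) in cluster 5. Acvr2b ranged from -1.34 in cluster 4 to -0.06 in cluster 1.

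Since receptors and SMADs of one branch can stand in for each other, the shares of paralogs were compared. Paralogs differ in gene length, so the shares compare groups of nuclei and do not give the balance between the RNAs. Smad3 made up 65.5% (62.3 to 68.5) of the UMIs of Smad2 and Smad3 in WT myonuclei and 85.7% (84.0 to 87.2) in KO. In IIb nuclei the share was 62.2% (54.1 to 69.8) and 65.5% (57.9 to 72.6), in IIx 66.3% (62.3 to 70.1) and 88.3% (86.0 to 90.3), in IIa 61.6% (50.5 to 71.9) and 87.1% (83.5 to 90.1), and without a main Myh gene 69.1% (58.8 to 78.3) and 87.8% (84.0 to 90.9). The WT intervals of the 4 groups overlapped, and the KO share lay above the WT share with no overlap of the intervals in IIx, IIa and the nuclei without a main Myh gene, but not in IIb. In the non-muscle classes it was 62.6% and 60.6%. Smad1 made up 38.1% (34.4 to 42.0) of the UMIs of Smad1, Smad5 and Smad9 in WT and 40.0% (36.6 to 43.5) in KO myonuclei, and 62.9% (58.5 to 67.2) and 73.2% (68.4 to 77.5) in the non-muscle classes.

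**Figure D5:**
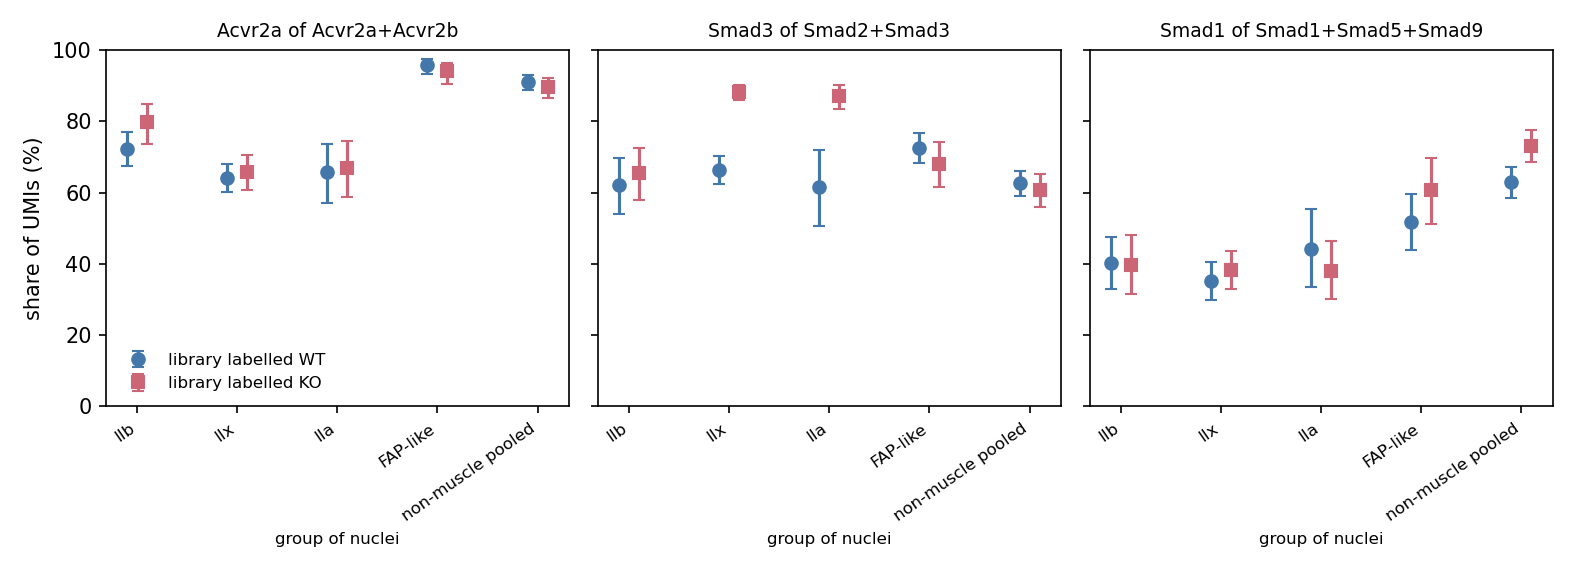
Share of UMIs in percent, with exact 95% binomial intervals, of Acvr2a among the type II activin receptor genes, of Smad3 among Smad2 and Smad3, and of Smad1 among the BMP SMAD genes, by group of nuclei and library. Among the groups drawn, the intervals of the libraries are apart for the Smad3 share in IIx (66.3% and 88.3%) and IIa (61.6% and 87.1%) nuclei and for the Smad1 share of the pooled non-muscle classes (62.9% and 73.2%).

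Of the 66 other pathway genes, 26 had enough UMIs in myonuclei to be compared between the libraries. Higher in KO by at least 1.5-fold relative to the median were 5, among them the ligand gene Tgfb3 (8.60 and 22.7 CPM, log2 ratio 1.40), Ltbp1, which encodes a protein that stores latent TGF-beta (1.10), the BMP receptor gene Bmpr1b (0.49) and the co-receptor gene Tgfbr3 (0.86). Lower in KO were 4: Smad6, the second inhibitory SMAD gene (20.9 and 6.75 CPM, log2 ratio -1.63, -2.06 to -1.22), the SMAD corepressor genes Ski (-0.91) and Skil (-0.87), and Tgif1 (-1.13). Over all genes 9.46% were higher and 5.73% lower. By role, the genes lower in KO included both inhibitory SMAD genes and 3 of the 6 SMAD modulators compared. None of the 4 type II receptor genes was called, and of the 5 type I receptor genes Bmpr1b was higher and Bmpr1a lower. The median log2 ratio of these 26 genes was -0.27.

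Between fibre types, 19 of the other pathway genes were compared and 7 were called in both libraries, 2 higher in IIa and 5 lower, beside 13.5% and 10.3% of all genes. Tgfb2 and Bmpr1b were higher in IIa than in IIb nuclei, with log2 ratios of 2.10 and 0.64 in WT and 1.14 and 1.11 in KO. Ltbp1 (-2.10 and -3.53), Acvr1b, a type I receptor of activin (-1.24 and -1.01), and Tgfbr3 (-1.20 and -1.16) were lower. The ubiquitin ligase genes Fbxo32 (-1.89 and -1.36) and Trim63 (-2.19 and -1.55), known for their rise in muscle atrophy, were lower in IIa as well.

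Between classes, 34 of the other pathway genes were compared, with 7 higher in myonuclei and 21 lower, beside 26.1% and 27.9% of all genes. Hjv, a BMP co-receptor, was at 71.3 CPM in WT and 43.1 CPM in KO myonuclei and at 4.36 and 1.14 CPM in the non-muscle classes. Acvr1b (119 and 76.0 CPM against 32.9 and 32.5 CPM) and Bmpr1b (147 and 207 CPM against 63.1 and 53.0 CPM) were also higher in myonuclei. Of the 5 type I receptor genes compared, Acvr1b, Bmpr1a and Bmpr1b were thus higher in myonuclei, Acvr1 was lower (72.6 and 59.4 CPM against 186 and 137 CPM), and Tgfbr1 was not called. The ligand genes Bmp4 (0.566 and 0.416 CPM against 106 and 80.9 CPM) and Bmp6 (3.96 and 3.12 CPM against 484 and 389.7 CPM) were lower in myonuclei, as were the ligand-binding Bmper and the endothelial co-receptor gene Eng. Among the ligands, Mstn was the only gene of 6 compared that was higher in myonuclei.

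Likeness of pattern was read from Pearson correlations of log2(CPM + 1) over 20 points, 10 groups of nuclei in each of the 2 libraries, among 8581 genes. The points share libraries and depth, so the values only describe. Mstn had at most 1 UMI in any non-muscle point, so likeness to it includes the step from myonuclei to non-muscle classes. The genes most like Mstn were Clip1 (0.946), Ubr3 (0.937), Map2k3 (0.936), Rb1cc1 (0.935) and Gm43063 (0.930). Those most like Smad3 were Mir99ahg (0.891), Nfix (0.883), Gga2 (0.879), Abi3bp (0.878) and Pcdh9 (0.867).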

How the data were processed

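Nuclear RNA of 2 libraries was measured by droplet sequencing. The deposited values are UMI counts per gene and barcode, which the authors made with Cell Ranger 7.0.0 on mm10, and no normalization was applied before deposit. The study's methods name a 3′ kit and the labels a Multiome protocol. Each library pools 2 mice, so there is 1 sample per group. The members, gene lists and comparisons were chosen with earlier results of these data known.

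Barcodes with 200 to 5000 genes and at most 5% mitochondrial UMIs were kept (9 WT and 18 KO barcodes were removed for mitochondrial share), and those with the highest Scrublet scores (scanpy 1.11.5), at a rate of 0.8% per 1000 barcodes, were removed as doublets (115 and 134). Nuclei were clustered with Seurat 5.3.0 (RPCA integration, 2000 variable genes, 30 components, resolution 0.5), leaving out 454 genes, the pathway genes and those 2-fold apart between libraries. Clusters were named where at least 3 markers of a class were detected and at least 1 was among the 10 leading genes. The mean log2 fold of the markers over the other clusters also had to be at least 2, and the class with the highest mean was taken. Myonuclei were clusters with myonuclear markers at 20000 CPM or more. These naming limits were set after the clusters were seen, and clusters 12 and 14 were left unnamed. UMIs were summed per library and group and given as CPM with exact Poisson intervals, ratios with exact conditional intervals, and shares with Clopper-Pearson intervals. A call needed 200 UMIs and 1.5-fold relative to the median gene. The ratio intervals were tested on simulated counts. The genes named were the members, Bcl6, other pathway genes past 1.5-fold (in the comparison between classes, examples of these), and the 5 genes most like Mstn and Smad3. Activin and inhibin subunit genes named beside them (Inha, Inhba, Inhbb) were chosen after their values were seen. One gene counted among the other pathway genes is not reported here by name. Alternatives covered doublets, filters, class assignment, scaling by TMM (edgeR 4.0.16), thinning and fibre-type purity. Python 3.11.15, numpy 2.4.6, scipy 1.17.1 and R 4.3.3 were used.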

Additional observations from a re-analysis of the deposited data

Results flagged for a closer look

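The difference between the libraries pointed in opposite directions in different fibre types for 2 genes, and these differences were not tested, since each genotype is 1 library. Measured from the median gene, the KO over WT log2 ratio of Mstn was -1.17 in IIb nuclei, 1.06 in IIx nuclei and -0.76 in nuclei without a main Myh gene. The ratio of Smad2 was 0.66 in IIb nuclei and -0.55 in IIx nuclei. The counting interval of Smad2 in IIb nuclei included 0, and after thinning each nucleus to 1000 UMIs its ratio, not measured from the median, was 0.548 in IIb and 0.053 in IIx nuclei, so the opposite directions were not seen there. The ratio of Mstn after the same thinning was -0.23 (-1.75 to 1.22) in IIb and 1.08 (0.09 to 2.15) in IIx nuclei. Its IIb interval then included 0, so a lower level in KO IIb nuclei was not shown at equal depth.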

How the results depend on the processing

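No paired analysis was possible because each group has 1 library. Of 100 values of the members' KO over WT log2 ratios, recomputed under 10 alternatives, 88 stayed within the counting interval, 12 moved out of it and 0 changed the direction of a called ratio. The 88 include the values under a minimum of 20 UMIs, which changes only the genes compared and could not move a ratio. Smad3 stayed between 1.24 and 1.46, Smad7 between -1.07 and -0.86 and Bmpr1a between -0.77 and -0.62, while the uncalled ratios of Mstn (-0.45 to 0.23) and Smad4 (-0.31 to 0.05) spanned 0, and thinning to 1000 UMIs brought those of Smad1 and Smad2 to 0.002 and -0.001. TMM and median-of-ratios scaling shifted all ratios by the same amount, since their factors were -0.144 and -0.145 on the log2 scale.

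With the mean of per-nucleus CPM, 1 member (Smad7) remained lower in KO, as Bmpr1a moved from -0.62 to -0.57 relative to the median. After thinning to 1000 UMIs, 0 members were lower in KO, 0 were higher in IIa and 1 (Bmpr1a) was higher in myonuclei. The 200-UMI minimum then left 6, 3 and 8 members to compare: relative to the median, Bmpr1a stood at -0.57 in KO over WT, Smad7, no longer compared, at -0.71, Smad3 in IIa over IIb, also not compared, at 1.12 in WT and 2.06 in KO, and Mstn in WT myonuclei over non-muscle at 4.06. The count of members higher in IIa was 0 when nuclei were assigned by their own markers and 0 with at least 3 Myh UMIs, where 1 (Smad4) was lower in IIa, because Smad3 in WT stood at 0.53 and 0.55 relative to the median. Thinning to 500 UMIs instead of 1000 lowered the shares of myonuclei with a UMI to 0.789% and 0.972% for Mstn and to 2.99% and 7.29% for Smad3. In alternatives added after seeing the data, the IIb ratio of Mstn was -0.46 and -0.23 under thinning, with each nucleus counted once or all UMIs counted, and the IIx ratio of Smad2 turned to 0.103 and 0.053. The 200 UMIs behind a call and the single library per genotype limit all values, and differences between mice cannot be told apart from those between genotypes.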
